A study of Mus musculus with 2 samples.

Results

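Arterial endothelial cells of the mouse aorta, the flat cells that line the lumen, were picked out of single-cell RNA sequencing of whole aortas in 1 library from mice overexpressing Cept1 in endothelium and 1 library from control mice. A barcode counted as an arterial cell when it carried at least 2 of the 4 pan-endothelial transcripts Pecam1, Cdh5, Tie1 and Egfl7 and at least 2 of the 5 arterial transcripts Cytl1, Gkn3, Bmp6, Bmx and Gja5. It also had at most 1 UMI each of Ptprc, Lum and Myh11, fewer than 2 of the capillary transcripts Gpihbp1, Cd300lg, Rbp7 and Timp4, and no UMI of the lymphatic transcripts Prox1 and Mmrn1. A UMI is a molecular tag that counts 1 captured transcript. This gate took 1213 of 19897 cells that passed quality, 843 in the Cept1 library, against 370 in the control library.

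The mice of the Cept1 library were labelled Cept1fl/fl Cre+, with a VE-cadherin-Cre-ERT2 transgene that tamoxifen switches on in endothelium, the lymphatic type included. The mice of the control library were labelled Cept1fl/fl Cre-, so by the labels both groups carried the floxed Cept1 allele and neither was free of it. All were male littermates on a C57BL6 background, and the treatment described for both was tamoxifen by 5 daily intraperitoneal injections of 1 mg per mouse from at least 8 weeks of age, with 5 days of recovery. The age label gives 6 to 8 weeks. Aortas from the arch to the pelvic bifurcation, 3 per condition, went into 10x Genomics 3′ v3 libraries, and whether the 3 were pooled was not given in the sources used here. With 1 library per group there is no replicate and no test between groups. Every interval below covers the counting error of UMIs or cells and not the difference between mice.

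Large arteries are lined by endothelium that differs from that of capillaries and veins. It keeps an arterial identity through Notch signalling and the transcription factors Sox17, Hey1 and Hey2, makes nitric oxide and prostacyclin, and senses the shear of flowing blood. CEPT1 is an enzyme of the endoplasmic reticulum that completes the synthesis of phosphatidylcholine and phosphatidylethanolamine, the main phospholipids of membranes. The study's title links endothelial CEPT1 to PPARα, a nuclear receptor for fatty acids, and to VEGF-A, the main growth factor of endothelium.

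The gated cells made up 7.55% of all cells passing quality in the Cept1 library (95% interval 7.07 to 8.05) and 4.24% in the control library (3.83 to 4.68). They were 53.9% of the endothelial-gated cells of the Cept1 library and 43.1% of those of the control library. Shares of cells after digestion of whole tissue depend on how many cells of each type were released, and how this differed between the 2 preparations was not tested. The median arterial cell held 7201 UMIs and 2869 genes in the Cept1 library, and 6430.5 UMIs and 2683.5 genes in the control library. Summed over arterial cells, the libraries held 6935478 and 3250106 UMIs, and none of the 74 barcodes that the 2 libraries shared was an arterial cell in both.

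The gate left few markers to check the label with. Vwf, the clotting factor carrier stored in endothelial granules and a marker the gate did not use, was at 1285 CPM, UMIs per 1000000 UMIs of the same set of cells, in the arterial cells of the Cept1 library and 1232 CPM in those of the control library. It was at 27.2 and 50.7 CPM in cells gated as capillary, but at 1983 and 589 CPM in the few other endothelial cells with 1 gate gene and 596 and 691 CPM in those with none, so it set the arterial cells apart from capillary cells and not from these. Gja4, an arterial gap junction gene outside the gate, was at 304 and 306 CPM in arterial cells and 16.9 and 28.5 CPM in capillary cells. The arterial name therefore rests mainly on the gate genes. All 5 gate genes were detected in 61.8% of the arterial cells of the Cept1 library and 55.1% of those of the control library. When each gate gene was measured in cells gated on the other 4, the log2 ratio (Cept1 library over control library) lay between -0.43 for Gkn3 and 0.28 for Bmp6. The 5 gate genes differed by less than 1.5-fold between the libraries.

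Other genes that stood high in these cells over the capillary and unclassed endothelial cells of the same library are given as a description, since the cells were chosen by genes of the same cells. Pde3a, a phosphodiesterase that breaks down cyclic AMP, was 60.6-fold higher in arterial than in those other endothelial cells in the Cept1 library and 71.9-fold in the control library. Hey2, a Notch target that keeps arterial identity, was 105-fold and 53.6-fold higher, and Adh7, an alcohol dehydrogenase acting on retinol, 168-fold and 74.9-fold higher. In the other endothelial cells Hey2 had only 4 and 7 UMIs and Adh7 4 and 9, so the sizes of these folds are imprecise, while Pde3a had 64 and 39.

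Cells near the threshold were less clear. Just inside it, the 49 cells with 2 gate genes in the Cept1 library and the 37 in the control library had Gja4 at 147 and 23.4 CPM. The 30 and 46 cells just outside it, with 1 gate gene, had Gja4 at 21.4 and 29.5 CPM, and the 28 and 31 cells with none at 7.94 and 0 CPM. Sox17, an arterial transcription factor, did not separate these cells, at 178 and 78.1 CPM with 2 gate genes, 0 and 5.89 CPM with 1 and 103 and 233 CPM with none. Fabp4, a capillary-enriched fatty acid carrier, was at 2929 and 5087 CPM just inside and at 5679 and 2127 CPM just outside, both far above its level over all arterial cells given below.

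Transcripts of other cells were present in the gated cells and differed between the libraries. The 10 fibroblast markers summed to 1457 CPM in the Cept1 library and 2742 CPM in the control library, all 10 were lower in the Cept1 library and 9 by at least 1.5-fold. The 6 platelet markers summed to 136 CPM in the Cept1 library and 37.5 CPM in the control library. The 13 leukocyte markers other than Cd74 summed to 351 CPM in the Cept1 library and 188 CPM in the control library. The 8 smooth muscle markers other than Acta2 and Tagln summed to 165 CPM in the Cept1 library and 154 CPM in the control library, and the 10 adipocyte markers to 10.8 and 18.5 CPM, with 4 of them at 0 in the control library. Venous endothelial markers, 10 in number, summed to 2225 CPM in the Cept1 library and 2304 CPM in the control library. Among the 8 with at least 100 UMIs over both libraries, 2 were at least 1.5-fold lower in the Cept1 library and none higher. These were Nr2f2, at 15.6 CPM against 50.5 CPM (log2 ratio -1.70), and Lrg1, at 24.1 CPM against 60.3 CPM (-1.32). What part such transcripts had in the ratios below was not tested. Prox1 and Mmrn1 were at 0 in both by the gate.

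Libraries also differed in transcripts of ribosomal RNA sequence. Gm42418 and AY036118, which overlap each other on opposite strands of chromosome 17, were at 13049 and 665 CPM in the Cept1 library and 26985 and 2124 CPM in the control library. Both were also lower in the Cept1 library in cells with none of the 4 pan-endothelial genes, by log2 ratios of -0.72 and -1.21. Camk1d, a calcium-dependent kinase, and Lars2, a mitochondrial leucyl-tRNA synthetase, moved with them, with log2 ratios of -1.53 and -0.93 in arterial cells and -0.57 and -0.94 in cells with no pan-endothelial gene. Their part in the differences below was not tested.

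Cept1 (chr3:106502260-106547802, minus strand, mm10) had 817 UMIs in the arterial cells of the Cept1 library and 235 in those of the control library. That is 118 CPM against 72.3 CPM, a log2 ratio of 0.70 (0.49 to 0.92), with at least 1 UMI in 50.7% of arterial cells of the Cept1 library and 37.0% of those of the control library. The size of the difference depended on how cells of different depth were weighted: the log2 ratio was 1.01 with every cell given equal weight and 1.41 with every cell thinned to 2000 UMIs. Thinning left out 52 and 49 shallower arterial cells. After it, 20.7% of arterial cells of the Cept1 library and 9.03% of those of the control library held a Cept1 UMI, beside 11.4% and 9.45% of cells with no pan-endothelial gene. Without thinning, 28.9% and 27.8% of the cells with no pan-endothelial gene held one, at median depths of 5765.5 and 6130 UMIs. The control arterial share lay at the level of those cells after thinning and above it without thinning, and the share in the Cept1 library lay above it both ways.

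The ratio was 1.01 (0.69 to 1.34) in gated capillary cells, 0.14 (-0.14 to 0.42) in endothelial cells with a lymphatic transcript, and 0.33 (0.25 to 0.40) in cells with no pan-endothelial gene. Whether the counted transcripts came from the overexpression allele or from the native gene cannot be told apart in these counts. Gt(ROSA)26Sor, a transcript of the Rosa26 locus that is often used to insert transgenes, had 7 UMIs in the Cept1 library, against 47 in the control library, a log2 ratio of -3.84 (-5.23 to -2.69). It was lower in the Cept1 library in cells with no pan-endothelial gene as well, with a log2 ratio of -2.69. The locus of the Cept1 allele was not given in the sources used here.

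Around Cept1, the other enzymes of phospholipid synthesis showed small differences. Of 34 measured members of that list (at least 100 UMIs over both libraries), 1 was at least 1.5-fold higher in the Cept1 library, Cept1 itself, and 2 were at least 1.5-fold lower, with a median log2 ratio of -0.09. The 1.5-fold limit stands in place of a test and was passed by 2.23% of all 9088 measured genes in the higher direction and 2.62% in the lower. Chpt1, which makes phosphatidylcholine by the same reaction as Cept1, was at 37.9 CPM in the Cept1 library and 41.2 CPM in the control library. Selenoi, the ethanolamine counterpart, was at 32.3 and 26.8 CPM, and Pcyt1a, the rate-controlling step ahead of Cept1, at 49.0 and 44.9 CPM. The intervals of these 3 ratios included 0. The members past the limit downward were Lpin1, a phosphatidate phosphatase that also acts as a PPARα coactivator, at 14.7 CPM against 24.0 CPM (log2 ratio -0.71, -1.15 to -0.26), and Agpat1, which makes phosphatidic acid, at 11.8 CPM against 18.8 CPM (-0.67, -1.16 to -0.16). Lpin1 was short of the limit under stricter quality, with 1000 genes or more and mitochondrial UMIs up to 5% per cell (-0.52), and Agpat1 with equal cell weights (-0.43) and after thinning (-0.49).

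**Figure D1:**
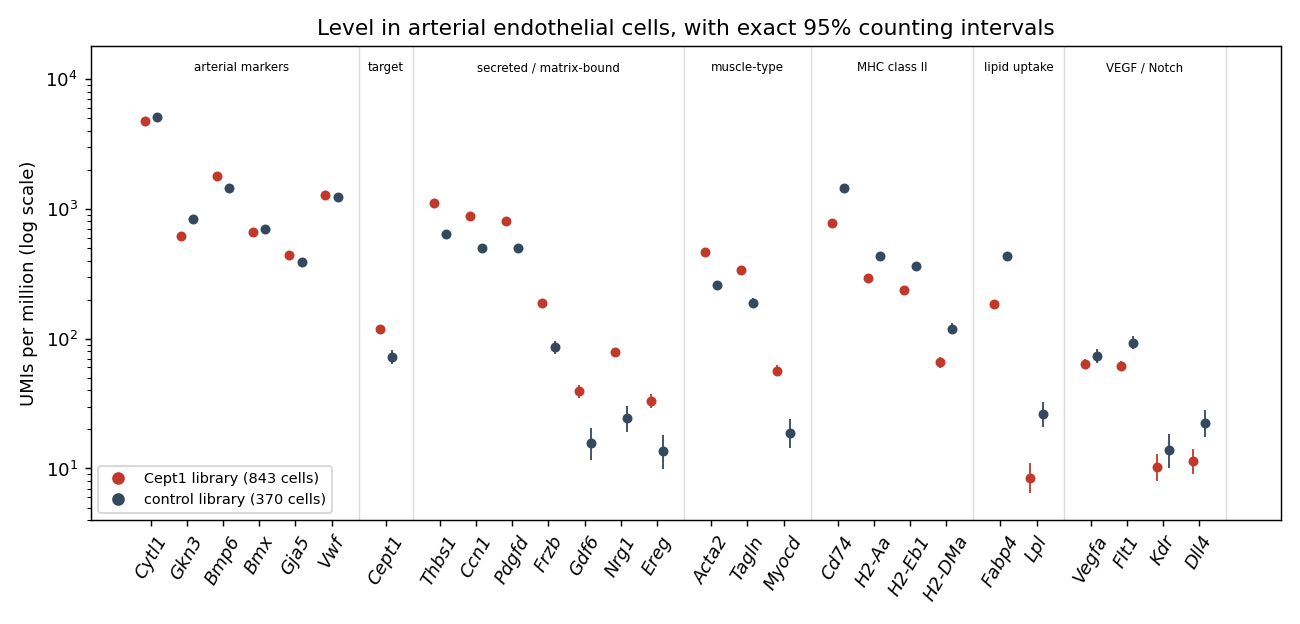
Level of selected genes in arterial endothelial cells, in CPM on a log scale, with exact 95% counting intervals. Red points are the Cept1 library and dark points the control library, 1 library each. The 6 arterial markers lie close together, while the secreted and muscle-type genes sit higher, and the MHC class II and lipid uptake genes lower, in the Cept1 library.

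Across all measured genes, 203 were at least 1.5-fold higher in the arterial cells of the Cept1 library and 238 at least 1.5-fold lower, and 43 (0.473%) and 69 (0.759%) were past 2-fold. The genes with the highest ratios included transcripts of macrophages and platelets: Mgl2 and Mrc1, lectins of tissue macrophages, at log2 1.89 and 1.41, F13a1, which cross-links fibrin, at 1.88, and Pf4, a chemokine of platelet granules, at 1.61. Without the 5% of cells with the highest doublet scores Mgl2 was at 0.51 and Mrc1 at -0.26, and with every cell weighted equally F13a1 was at 0.21 and Pf4 at 0.56. The genes with the lowest ratios included transcripts of fibroblasts, such as the collagen VI chain Col6a1 at -1.58 (-0.55 under stricter quality), Gas1 at -1.56 (-2.52 after thinning) and the complement component C7 at -2.22. These moved with the sums of other-cell markers given above, and the part of those transcripts was not tested. The ranking was therefore repeated over the 5548 measured genes that stood at least as high in arterial cells as in cells with no pan-endothelial gene, of which 1.84% were at least 1.5-fold higher and 1.82% at least 1.5-fold lower. That selection was made after the first ranking had been seen. The 7 alternatives named next were run on all genes and did not use it. Myocd, Lpl and Fbxl22 lay outside the selection. The higher of their arterial levels was 0.44, 0.11 and 0.38 times the higher level in cells with no pan-endothelial gene. Cd74, H2-Aa, H2-Ab1, H2-Eb1, Tagln and Samd4 were also absent from its rankings, though their ratios and counts would have placed them among the 15. Acta2 was absent too, with over 20% of the control UMIs in 1 cell. Thbs1, Ccn1, Efna5, Frzb, Gdf6, Ereg, Nrg1, Myocd, Srf, Acta2 and Tagln among the higher genes described next, and Cd74, H2-DMa, Fabp4, Lpl and Dll4 among the lower ones, stayed past 1.5-fold under each of the 7 alternatives in cells, scaling and weighting.

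Several of the higher genes encode secreted or matrix-bound proteins. Gdf6, Ereg and Frzb were among the 15 highest of that ranking, and Frzb, Thbs1, Ccn1, Efna5 and Pdgfd among the 15 highest with at least 1000 UMIs. Thbs1 encodes thrombospondin-1, a matrix glycoprotein that inhibits angiogenesis and activates TGF-β. It had 7686 UMIs in the Cept1 library, against 2069 in the control library, 1108 CPM against 637 CPM, with a log2 ratio of 0.80 (0.73 to 0.87). It was detected in 73.4% of arterial cells of the Cept1 library and 58.4% of those of the control library, and after thinning to equal depth in 55.5% and 43.6%. Thinned cells with no pan-endothelial gene held it in 3.74% and 3.76%, so the arterial shares stood well above that level in both libraries. In those cells the ratio ran the other way, at -0.64 (-0.72 to -0.56).

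Ccn1, a matricellular protein that binds integrins and a target of YAP and of serum response factor, was at 887 CPM in the Cept1 library and 498 CPM in the control library (log2 ratio 0.83, 0.75 to 0.91). Its relative Ccn2 was at 202 and 169 CPM (0.25, 0.11 to 0.40), short of 1.5-fold. Pdgfd, a growth factor for smooth muscle cells and fibroblasts, was at 812 CPM against 501 CPM (0.70, 0.62 to 0.78, and 0.55 under stricter quality). Neither Ccn1 nor Pdgfd was past 1.5-fold in gated capillary cells, where the ratios were -0.14 and 0.15. Efna5, a membrane-bound ligand of Eph receptors, was at 2249 CPM against 1299 CPM in arterial cells (0.79, 0.74 to 0.84) and had 30 UMIs against 75 in capillary cells (-1.52, -2.18 to -0.89).

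Frzb, a secreted Wnt antagonist, was at 188 CPM in the Cept1 library and 85.8 CPM in the control library (log2 ratio 1.13, 0.94 to 1.32). Sfrp1, another secreted Wnt antagonist, was at 0.06. Gdf6, a ligand of the BMP family, was at 39.2 CPM against 15.7 CPM (1.32, 0.89 to 1.78, and 0.70 after thinning) and came from few cells, 77 in the Cept1 library, against 18 in the control library. Ereg, an EGF receptor ligand, was at 33.2 CPM against 13.5 CPM (1.29, 0.82 to 1.79), in 15.5% and 7.57% of cells. Nrg1, a ligand of ERBB receptors made by arterial endothelium, had 544 UMIs against 79 (1.69, 1.35 to 2.05, and 2.43 after thinning), but 1 cell held 35.4% of the control UMIs and 1 cell 11.0% of those of the Cept1 library. After thinning, 6.19% of arterial cells of the Cept1 library and 2.18% of those of the control library held an Nrg1 UMI.

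As groups, these families moved less than their leading members. Of 18 measured EGF family and other growth factors, 3 were at least 1.5-fold higher in the Cept1 library (Nrg1, Ereg and Pdgfd) and 1 at least 1.5-fold lower (Igfbp6, an IGF-binding protein also made by fibroblasts, at -1.34, but -0.33 under stricter quality and -3.11 with equal cell weights), with a median of 0.23 that was -0.03 with every cell weighted equally. Of 26 BMP and TGF-β genes, 2 were higher (Gdf6, and the TGF-β receptor Tgfbr1 at 0.70, or 0.47 after thinning) and 1 lower (Inhba, an activin subunit, at -0.60, past the limit in 3 of 7 alternatives and -0.13 after thinning), with a median of 0.06. Bmp4, a BMP made by arterial endothelium, was at 0.02 and Eng, a co-receptor of BMP9, at -0.18. Of 13 Wnt genes, 1 was higher and 1 lower, with a median of -0.06. Of 19 genes of YAP signalling and disturbed flow, 2 were higher (Ccn1 and Thbs1) and none lower, with a median of 0.13.

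**Figure D2:**
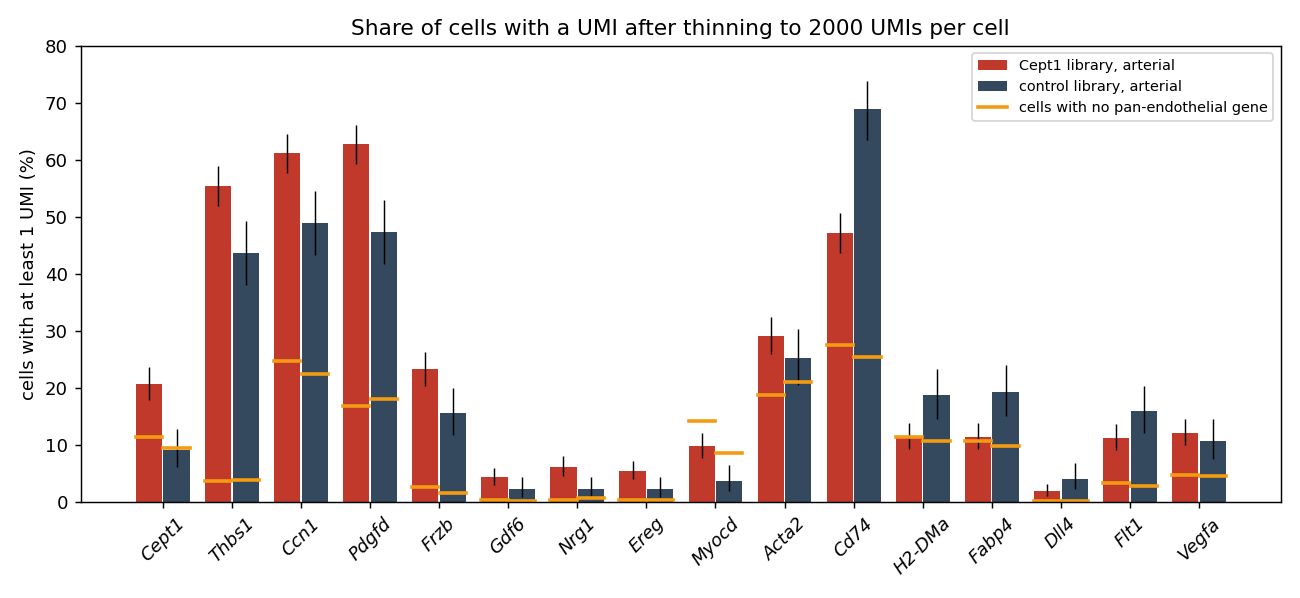
Share of arterial cells with at least 1 UMI of a gene after every cell was thinned to 2000 UMIs, in percent, with exact 95% binomial intervals. Red bars are the Cept1 library (791 cells) and dark bars the control library (321 cells), and orange lines mark the share in cells with no pan-endothelial gene. Cept1 stands at 20.7% against 9.03%, Thbs1 at 55.5% against 43.6%, and Cd74 at 47.2% against 68.8%.

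A second set of higher genes was muscle-type. Serum response factor (SRF) and its cofactor myocardin drive such genes from the CArG box. This is a DNA element that SRF binds, with 6 bases of A or T between CC and GG. Whether SRF or myocardin drove the genes below was not tested. Myocd, which encodes myocardin, had 393 UMIs in the Cept1 library, against 61 in the control library, 56.7 CPM against 18.8 CPM (log2 ratio 1.59, 1.20 to 2.01). Srf itself had 93 UMIs against 22 (0.99, 0.30 to 1.73). Acta2, the smooth muscle actin, was at 467 CPM against 259 CPM (0.85, 0.74 to 0.96), and Tagln, an actin-binding protein, at 336 CPM against 189 CPM (0.83, 0.70 to 0.96). Fbxl22, an F-box protein of the muscle sarcomere, had 111 UMIs against 8 (2.70, 1.67 to 3.95). The ratio of Fbxl22 was 1.67 with equal cell weights and 1.28 after thinning, and its level of 16.0 and 2.46 CPM lay below that of cells with no pan-endothelial gene, at 27.5 and 42.3 CPM. Samd4, an RNA-binding protein, was at 122 CPM against 60.9 CPM (1.00, 0.77 to 1.23).

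Of 23 measured genes in a list of SRF and muscle-type genes, 9 were at least 1.5-fold higher in the Cept1 library and none lower, with a median of 0.37. Over all measured genes 2.23% were at least 1.5-fold higher. The SRF list was drawn up after several of these ratios had been seen, so its count describes these genes and supports nothing further. Vcl, which links integrins to actin, was at 0.52, and Tpm1, a tropomyosin, at 0.37, while Actb at -0.04 and Flna at -0.06, both actin cytoskeleton genes, stood near 0. Of the 23, 6 lay below 0, the lowest being Tpm2, another tropomyosin, at -0.51 and Mylk, the kinase of myosin light chain, at -0.30. Myh11, the defining smooth muscle myosin, was at 7.79 CPM in the Cept1 library and 11.4 CPM in the control library (-0.55, -1.18 to 0.10), opposite in sign to Acta2 and Tagln, and was held to at most 1 UMI per cell by the gate. After thinning, Acta2 was held by 29.1% of arterial cells of the Cept1 library and 25.2% of those of the control library, with overlapping intervals, and Tagln by 23.8% and 23.7%. In cells with no pan-endothelial gene, Acta2 and Tagln were lower in the Cept1 library, at -0.56 and -0.62, opposite in sign to arterial cells. That set mixes cell types, and the part of smooth muscle transcripts in the arterial ratios was not tested. Myocd was higher in the other sets too, at 2.05 in capillary cells and 0.57 in cells with no pan-endothelial gene. Its share of thinned arterial cells (9.73% against 3.74%) lay below that of cells with no pan-endothelial gene (14.2% against 8.50%), a set that holds smooth muscle. A single cell held 20.3% of the Acta2 UMIs of the control library.

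The promoters of 3 of these genes are shown for the CArG box they hold, upstream of a gene that was higher (Srf, Fbxl22) and of a smooth muscle light chain gene that differed little (Myl9, 0.24). Each is the 250 bases before the RefSeq start on GRCm38.p6, written 5′ to 3′ on the strand of the gene, with the CArG box in capitals. They cover chr17:46556163-46556412 on the minus strand for Srf, chr9:66514594-66514843 on the minus strand for Fbxl22 and chr2:156775214-156775463 on the plus strand for Myl9.
Srf: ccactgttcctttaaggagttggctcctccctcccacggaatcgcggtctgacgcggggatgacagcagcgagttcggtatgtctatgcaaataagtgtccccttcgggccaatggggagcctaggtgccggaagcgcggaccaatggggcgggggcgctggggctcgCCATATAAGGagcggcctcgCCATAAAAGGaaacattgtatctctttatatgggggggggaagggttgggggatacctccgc
Fbxl22: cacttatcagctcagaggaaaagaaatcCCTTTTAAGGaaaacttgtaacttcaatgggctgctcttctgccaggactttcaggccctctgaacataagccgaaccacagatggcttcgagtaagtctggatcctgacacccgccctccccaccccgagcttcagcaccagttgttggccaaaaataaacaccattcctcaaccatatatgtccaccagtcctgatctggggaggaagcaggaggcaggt
Myl9: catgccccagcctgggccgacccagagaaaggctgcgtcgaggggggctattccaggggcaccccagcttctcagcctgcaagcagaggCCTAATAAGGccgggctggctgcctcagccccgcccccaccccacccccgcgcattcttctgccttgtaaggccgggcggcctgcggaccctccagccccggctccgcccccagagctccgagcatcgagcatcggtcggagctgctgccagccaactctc
The Srf promoter held 2 such boxes, starting 82 and 62 bases before the start, and those of Fbxl22 and Myl9 held 1 each, 222 and 161 bases before it. Of the 28 listed genes, 21 had a promoter in the RefSeq set and 6 of those held a box, against 482 of all 32851 promoters (1.47%). Genes known for their CArG boxes were among the reasons for listing them, and a match is not a bound site. Of the 9 higher genes 7 had a promoter in the set and 2 held a box, and the other 4 genes with a box were not past 1.5-fold or, for Fhl2, not measured. No box of this exact form was found in the windows of Acta2, Ccn1, Samd4, Hacd1 and Rasl12. The search could not find boxes with a G or C among the 6 central bases, or boxes outside the 250 bases. It therefore does not show that these genes lack CArG boxes.

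The MHC class II genes, which present antigen to helper T cells and which arterial endothelium can carry at a low level, were lower in the Cept1 library. Cd74, the invariant chain that escorts class II molecules, had 5440 UMIs in the Cept1 library, against 4679 in the control library, 784 CPM against 1440 CPM, a log2 ratio of -0.88 (-0.93 to -0.82). It was detected in 66.0% of arterial cells of the Cept1 library and 81.6% of those of the control library, and after thinning in 47.2% and 68.8%, beside 27.5% and 25.3% of cells with no pan-endothelial gene. Of the class II chains, H2-Aa was at 295 CPM against 433 CPM (-0.55, -0.65 to -0.45), H2-Ab1 at 220 CPM against 321 CPM (-0.55, -0.66 to -0.43) and H2-Eb1 at 237 CPM against 364 CPM (-0.62, -0.73 to -0.51).

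H2-DMa and H2-DMb1, the chains of the peptide-loading molecule, were at 65.7 and 55.5 CPM in the Cept1 library and 119 and 101 CPM in the control library, both with a log2 ratio of -0.86. Ciita, the regulator of this gene set, had 67 UMIs against 39, and its interval included 0 (-0.31, -0.90 to 0.30). All 7 measured members were below 0 and 4 were at least 1.5-fold lower, with H2-Eb1 just short after thinning (-0.58). Over all measured genes 2.62% were at least 1.5-fold lower. The median of -0.62 stayed between -0.74 and -0.61 under the alternatives run. The class II list too was drawn up after the ratios were seen.

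In other cells of the same libraries the class II genes ran the other way. In gated capillary cells the ratio was 0.53 (0.30 to 0.76) for Cd74, 0.66 (0.31 to 1.01) for H2-Aa and 0.62 (0.25 to 0.99) for H2-Eb1. In cells with no pan-endothelial gene, which hold the antigen-presenting leukocytes, it was 0.29 for Cd74, 0.43 for H2-Aa and 0.41 for H2-Eb1. The 9 listed class II genes summed to 5758 CPM in those cells of the Cept1 library and 4576 CPM in the control library. In arterial cells they summed to 1668 and 2794 CPM. Endothelial cells with a lymphatic transcript went with the arterial cells, at -1.05 for Cd74 and -0.46 for H2-Aa. The summed leukocyte markers other than Cd74 were higher in the arterial cells of the Cept1 library, though the B cell markers Cd79a and Ms4a1 were lower, with 13 and 4 UMIs in the Cept1 library and 26 and 14 in the control library. The part of B cell transcripts was not tested. With no UMI of Ptprc, Lum, Myh11 or Adipoq allowed the class II median was -0.64. Of 29 measured interferon-response genes 1 was at least 1.5-fold lower and none higher, with a median of -0.07. That one, Isg15, a ubiquitin-like modifier, was at 16.4 CPM against 38.5 CPM (-1.23, and -0.24 with every cell weighted equally), and it was lower in the Cept1 library in capillary cells (-1.72) and in cells with no pan-endothelial gene (-0.63) too. Irf1, an interferon-induced transcription factor that acts on class II genes through Ciita, was at 84.1 CPM against 140 CPM (-0.74, -0.92 to -0.56), but at -0.33 with no UMI of Ptprc, Lum, Myh11 or Adipoq allowed.

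**Figure D3:**
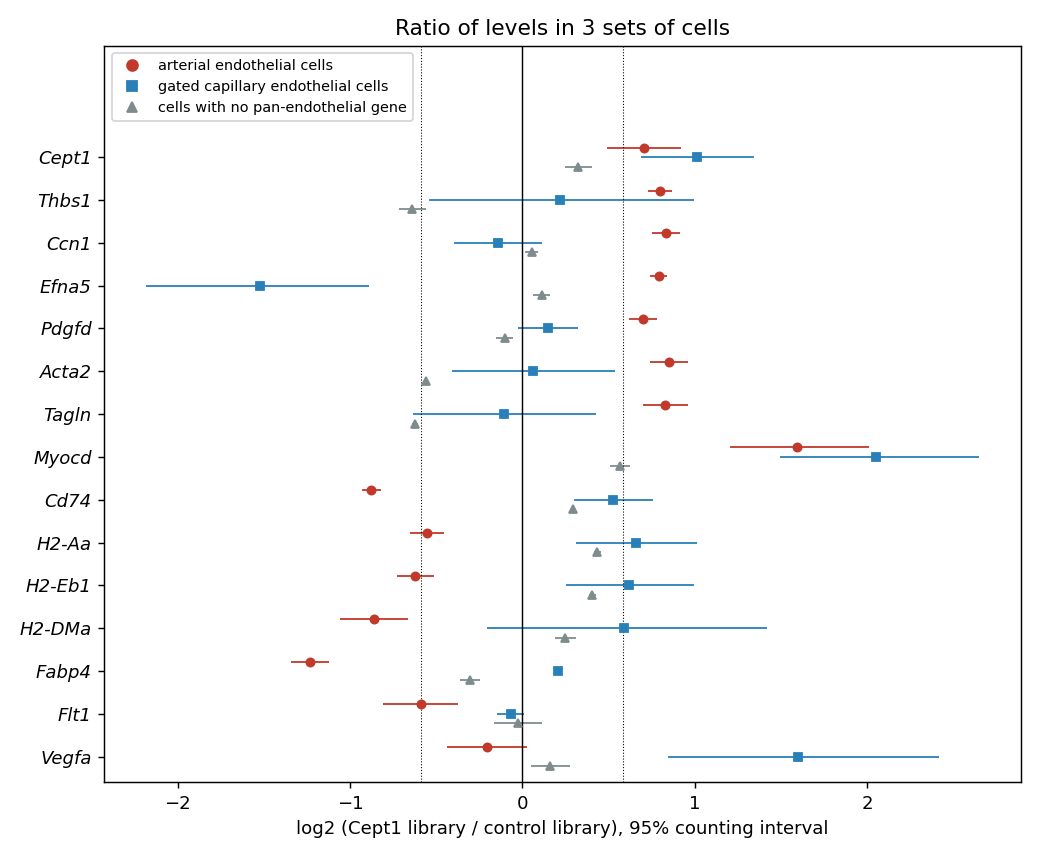
Log2 ratio of the level in the Cept1 library over that in the control library for 15 genes, with exact 95% counting intervals. Circles are arterial endothelial cells, squares gated capillary endothelial cells and triangles cells with none of the 4 pan-endothelial genes, and dotted lines mark 1.5-fold. Cd74, H2-Aa and H2-Eb1 lie below 0 in arterial cells and above 0 in the other sets, and Acta2 and Tagln lie above 0 in arterial cells and below 0 in cells with no pan-endothelial gene.

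Several genes of endothelial lipid handling were also lower in the Cept1 library. Fabp4, a cytosolic fatty acid carrier and PPAR target, had 1283 UMIs in the Cept1 library, against 1412 in the control library, 185 CPM against 434 CPM (log2 ratio -1.23, -1.34 to -1.12). Lpl, the lipase of circulating triglycerides, had 59 UMIs against 85 (-1.62, -2.12 to -1.12, and -2.39 with equal cell weights), and Cd36, a fatty acid receptor, 118 against 95 (-0.78, -1.18 to -0.38, but 0.13 under stricter quality). Scarb1, the HDL receptor, was at 8.22 CPM against 13.9 CPM (-0.75, and -0.49 under stricter quality) and Abcg1, which exports cholesterol to HDL, at 18.9 CPM against 32.3 CPM (-0.77). Of 11 measured members 6 were at least 1.5-fold lower, Lrp1 (310 UMIs against 224) among them, and none higher, with a median of -0.62. Over all measured genes 2.62% were at least 1.5-fold lower. Apoe at 0.16, Abca1 at -0.09 and Fabp5 at -0.04, which carry lipid in and out of many cell types, stood near 0.

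Of the 11 members 8 had a higher level in capillary than in arterial cells of both libraries, and 3 (Lrp1, Apoe and Stard13) a lower one. In capillary cells Fabp4 was at 37335 CPM in the Cept1 library and 32363 CPM in the control library, and its ratio there was 0.21. A single cell held 18.5% of the Fabp4 UMIs of the control library's arterial cells and 12.4% of those of the Cept1 library. In cells with at least 3 gate genes Fabp4 had only 725 UMIs in the Cept1 library, against 761 in the control library (-1.18). The summed level of the 12 capillary markers in the arterial cells, Fabp4 and Cd36 among them, was 629 CPM in the Cept1 library and 858 CPM in the control library. Fabp4 itself made up 185 and 434 CPM of these sums, so they are no separate gauge of capillary transcripts. Among the 4 measured capillary markers, 2 lay above 0 and 2, Fabp4 and Cd36, below. Under stricter quality the list's median was -0.22, and with no UMI of Ptprc, Lum, Myh11 or Adipoq -0.45. How far carried-over capillary or adipocyte transcripts entered these values was not tested.

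PPARα itself was at the limit of detection, with 11 Ppara UMIs in the Cept1 library, against 3 in the control library over all arterial cells (log2 ratio 0.78, -1.14 to 3.26). Of 28 measured PPARα targets 1 was at least 1.5-fold higher in the Cept1 library and 3 at least 1.5-fold lower, with a median of -0.06. The higher one was Ucp2, a mitochondrial carrier, at 28.6 CPM against 14.5 CPM (0.98, 0.52 to 1.47, and 0.38 with every cell weighted equally), which was also higher in capillary cells (0.44) and in cells with no pan-endothelial gene (0.69). The lower ones were Lpl, Fabp4 and Cd36. Of 11 receptors and partners of the PPAR family, Lpin1 was past the limit and the median was -0.11. Ppard, the PPAR form most often found in endothelium, was at -0.28.

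The VEGF axis had few differences past the limit. Vegfa had 442 UMIs in the Cept1 library, against 239 in the control library, 63.7 CPM against 73.5 CPM, a log2 ratio of -0.21 (-0.44 to 0.03) whose interval included 0. In gated capillary cells it was higher, with 66 UMIs against 19 (1.60, 0.84 to 2.42). Kdr, the main signalling receptor of VEGF-A, was scarce in the arterial cells with 71 UMIs against 45 (-0.44, -0.99 to 0.14). Flt1, a decoy receptor that holds VEGF-A back, was at 61.7 CPM against 92.9 CPM (-0.59, -0.81 to -0.37), and Nrp2, a co-receptor mainly of VEGF-C, at 11.0 CPM against 17.8 CPM (-0.70, -1.22 to -0.18). Under stricter quality these ratios were -0.28 for Flt1 and 0.16 for Nrp2. Of 29 measured genes of VEGF signalling Flt1 and Nrp2 were the 2 at least 1.5-fold lower and none was higher, with a median of -0.07. Of 20 genes of tip cells and sprouting growth, 2 were lower (Dll4, and the guidance ligand Slit2 at -0.61, or -0.42 after thinning) and none higher, with a median of -0.10. Apln and Aplnr, a ligand and receptor of sprouting endothelium, had 0 and 1 UMIs in the Cept1 library and 1 and 2 in the control library. Esm1, a tip cell marker, had 0 UMIs in both, which allows a level of up to 0.433 CPM in the Cept1 library and 0.923 CPM in the control library.

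Most arterial identity genes differed little. Of 21 measured members of the Notch and arterial programme none was at least 1.5-fold higher and 3 were at least 1.5-fold lower, with a median of 0.01. Dll4, the main Notch ligand of arteries, had 79 UMIs in the Cept1 library, against 73 in the control library, 11.4 CPM against 22.5 CPM (-0.98, -1.46 to -0.50). Jag2, another ligand, was at 13.1 CPM against 22.2 CPM (-0.76), and Sema3g, a semaphorin of arterial endothelium, at 35.8 CPM against 61.2 CPM (-0.78). Only Dll4 of these 3 stayed past 1.5-fold under all 7 alternatives, while Jag2 was at -0.30 and Sema3g at -0.57 with equal cell weights. Jag1 and Dll1, further ligands, were at 0.29 and 0.42 (Dll1 -0.20 after thinning), and the targets Hey2 and Hes1 at 0.01 and 0.34. Hey1 was scarce, with 35 UMIs against 25 (-0.61, -1.39 to 0.19), and at 0.25 with equal cell weights. Sox17 at -0.23, Gja4, a gap junction protein, at -0.01 and Efnb2, the ephrin ligand that marks arteries, at 0.33 stayed within 1.5-fold.

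None of 22 measured genes of the shear response and nitric oxide passed 1.5-fold in either direction, with a median of 0.06. Klf2 and Klf4, transcription factors that laminar flow induces, were at 0.10 and 0.35, Nos3, the endothelial nitric oxide synthase, at -0.19, and Edn1, the vasoconstrictor endothelin-1, at 0.23. Of 18 measured haemostasis genes Thbs1 was higher and F3, tissue factor, lower at -0.89, or -1.92 after thinning (122 UMIs in the Cept1 library, 106 in the control library), with a median of 0.04. Of 36 basement membrane and matrix genes 1 was lower, Sparcl1 at -1.52 (-2.15 after thinning), with a median of -0.07. Eln, the elastin precursor, was at 0.01, Fbln5, which assembles elastic fibres, at 0.06 and Mgp, an inhibitor of calcification, at -0.27.

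**Figure D4:**
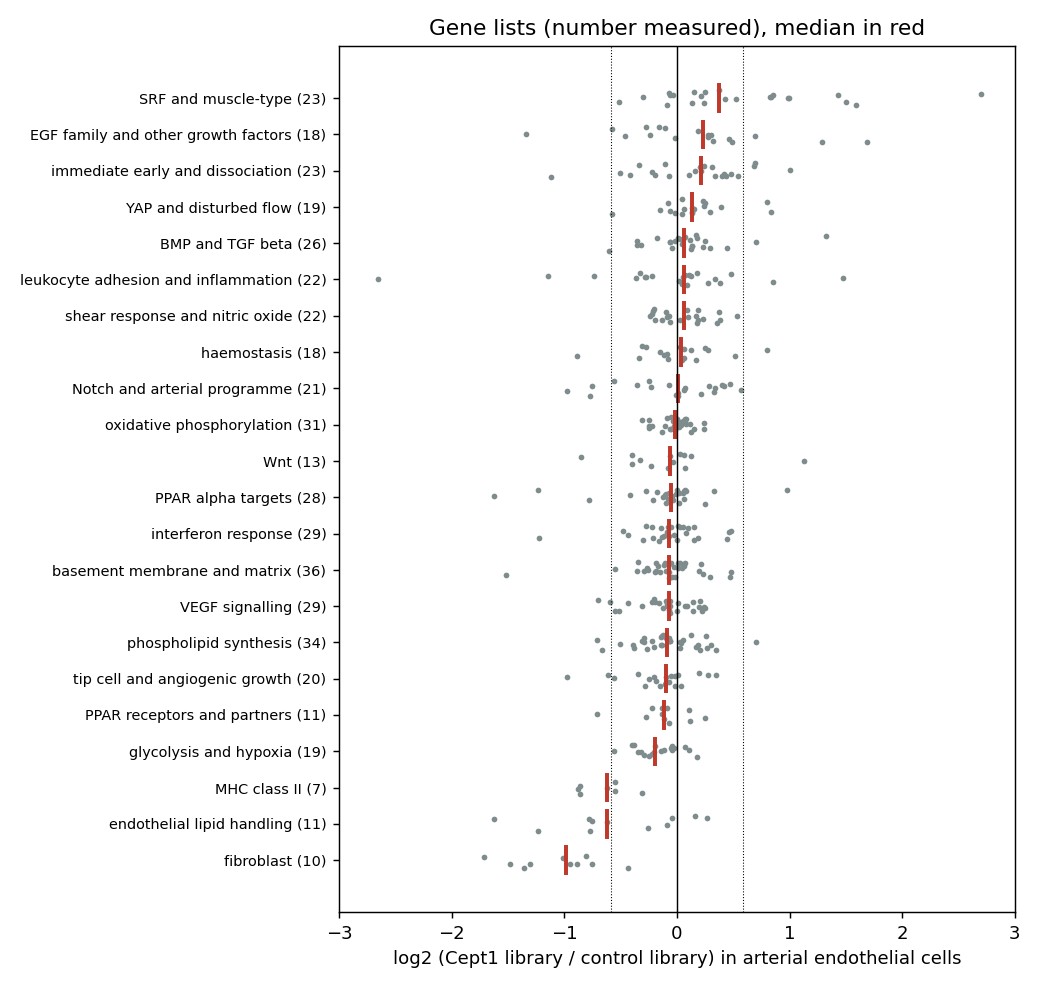
Log2 ratio, Cept1 library over control library, in arterial cells for the measured members of 22 gene lists, with the number measured in brackets. Each grey point is a gene, red bars are list medians and dotted lines mark 1.5-fold. Medians of most lists lie near 0, that of the fibroblast markers lies lowest, those of MHC class II and lipid handling at -0.62, and that of the SRF and muscle-type list at 0.37. Not shown are the markers of platelets (2 measured, median 2.27), leukocytes (7, 1.18) and smooth muscle (5, 0.43), which lie higher.

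Genes of leukocyte adhesion and inflammation split. Of 22 measured members 2 were at least 1.5-fold higher and 3 at least 1.5-fold lower, with a median of 0.07. The higher ones were the chemokines Ccl7 at 1.47 and Cxcl2 at 0.85, and the lower ones Cxcl10, Irf1 and Sele, an endothelial selectin, at -1.15. Ccl7, Cxcl2 and Sele each changed sign under at least 1 alternative in cells or weighting. Vcam1 and Icam1, adhesion molecules for leukocytes, were at 0.11 and -0.22, and Selp, which tethers rolling leukocytes, at 0.05. Cxcl10, a T cell chemokine, had 185 UMIs in the Cept1 library, against 545 in the control library (-2.65), but came from 19 and 7 cells, of which 1 held 65.9% and 1 held 46.6% of the UMIs. Such a value rests on single cells.

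Immediate early genes, which respond to growth factors and also to tissue digestion, had 3 members at least 1.5-fold higher and 1 at least 1.5-fold lower of 23, with a median of 0.22 that was -0.06 with every cell weighted equally. Myc, a growth-promoting transcription factor, was at 23.5 CPM in the Cept1 library and 11.7 CPM in the control library (1.01, 0.49 to 1.56, and 0.51 after thinning), with 23.7% of the control UMIs in 1 cell. Dusp1, a MAP kinase phosphatase, was at 0.68 (past the limit in 3 of 7 alternatives, and 0.28 with equal cell weights) and Socs3, an inhibitor of cytokine signalling, at -1.12. Dusp1 was also higher in cells with no pan-endothelial gene, at 0.55. Of 19 measured genes of glycolysis and hypoxia 16 lay below 0, none past 1.5-fold, with a median of -0.20. Ldha, lactate dehydrogenase, was at -0.22 and Pkm, pyruvate kinase, at -0.25. None of 31 oxidative phosphorylation genes, 19 sterol and fatty acid synthesis genes, 18 genes of the unfolded protein response and 9 cell cycle genes passed 1.5-fold in either direction.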

How the data were processed

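Whole aortas of 1 Cept1 and 1 control library were measured by 10x Genomics 3′ v3 single-cell RNA sequencing. The authors deposited unnormalised UMI counts for every gene and barcode. The file headers give Cell Ranger 7.2.0, and Seurat and mm10 stand in the submitters' processing notes. How intronic reads and strand were treated was not stated there. The libraries held 17728 barcodes with 95735360 UMIs (Cept1) and 14349 with 88220524 UMIs (control), over 32285 features.

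Cells needed 500 genes or more and mitochondrial UMIs up to 10% to be kept, 11168 (Cept1) and 8729 (control). UMIs were summed over the gated cells of a library and divided by the library's arterial total (CPM). The interval of a ratio comes from the exact 95% Clopper-Pearson bounds on the share of a gene's UMIs held by the Cept1 library, and shares of cells have exact 95% binomial bounds. None of these bounds covers differences between mice, and no test between the groups was made. A gene was measured with at least 100 UMIs over both libraries. No doublets were removed, and leaving out the 5% of cells with the highest Scrublet scores (scanpy 1.11.5) was an alternative. Other alternatives were stricter quality, 3 gate genes, no other-cell UMI, median-of-ratios scaling, equal cell weights, thinning to 2000 UMIs, other count minimums and 2-fold. A count of 0 allows up to 3 counts. The code for the ratio and its interval was run on counts simulated with counting error alone. That simulation left out UMIs clustered in single cells, so it cannot show how the intervals hold there.

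The members, the 38 gene lists and the tests were chosen with earlier results of these data known, and the MHC class II and SRF lists were added after seeing the ratios. Named genes were Cept1, Ppara, Vegfa, Kdr, Flt1 and Gt(ROSA)26Sor, the 15 highest and lowest ratios, the 3 largest ratios of each list, list members whose role is described, the arterial markers, and the 15 genes highest over other endothelial cells. The highest and lowest genes leave out gate, mitochondrial, ribosomal, haemoglobin, immunoglobulin and unnamed genes, and any with over 20% of a library's UMIs in 1 cell. Genes from the rankings over arterial-high genes and over genes with at least 1000 UMIs, Gm42418, AY036118, Cd79a and Ms4a1 were added after their values were seen. Coordinates came from GENCODE vM21 on GRCm38 for 32158 features, and promoters from RefSeq on GRCm38.p6.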

Additional observations from a re-analysis of the deposited data

Results flagged for a closer look

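These genes had a ratio in arterial cells and a ratio of opposite sign in another set of cells of the same 2 libraries, both with counting intervals beyond 0.3 on the log2 scale. With 1 library per group the difference between the sets was not tested. All ratios are the Cept1 library over the control library.

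Against cells with none of the 4 pan-endothelial genes, Thbs1 was at 0.80 in arterial cells and -0.64 in those cells, Acta2 at 0.85 and -0.56, Tagln at 0.83 and -0.62, Fbxl22 at 2.70 and -0.62, and Nrg1 at 1.69 and -0.98. In the other direction, Cd36 was at -0.78 in arterial cells and 0.98 in cells with no pan-endothelial gene, H2-Aa at -0.55 and 0.43, and H2-Eb1 at -0.62 and 0.41. Nrg1 and Fbxl22 rested on few arterial cells, 94 and 67 in the Cept1 library and 23 and 8 in the control library.

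Against gated capillary endothelial cells, Efna5 was at 0.79 in arterial cells and -1.52 in capillary cells, H2-Aa at -0.55 and 0.66, and Cd36 at -0.78 and 0.48. The capillary sets held 291 cells in the Cept1 library, against 207 in the control library, and Efna5 had 30 and 75 UMIs there.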

How the results depend on the processing

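No paired analysis was possible because each group has 1 library. Of 68 named genes past 1.5-fold that were run under 7 alternatives in cells, scaling and weighting, 39 stayed past it in the same direction under each. The other 29 did not under at least 1. Lrp1, Hacd1, Rasl12, Nr2f2 and Lrg1 were past 1.5-fold but were not among the 68. Median-of-ratios scaling reversed or moved none of the 125 named genes. For each value below that changed, the cause was not tested. The arterial share was 6.09% in the Cept1 library, against 3.40% in the control library with stricter quality, 6.28% and 3.01% without cells holding other-cell UMIs, and 53.9% and 43.1% of gated endothelial cells, and 3.82% in the control library with 3 gate genes. The Cept1 ratio was 1.01 with equal cell weights and 1.41 after thinning. The counts of genes higher and lower were 418 and 509 with equal weights, 673 and 825 at 20 UMIs, 74 and 57 at 300 UMIs, 43 and 69 at 2-fold, and 102 and 101 among genes at least as high as in cells with no pan-endothelial gene, and 138 lower with stricter quality and 106 lower after thinning.

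With equal weights the list medians were 0.17 for Notch, 0.15 for haemostasis, -0.026 for EGF family and other growth factors, -0.73 for lipid handling, -0.038 for adhesion and inflammation, 0.12 for interferon response, -0.064 for immediate early genes and 0.49 for SRF genes. After thinning they were 0.053 for Wnt, -0.83 for lipid handling, -0.18 for adhesion, 0.053 for interferon response, 0.040 for immediate early genes, -0.064 for glycolysis and -0.74 for MHC class II. At 20 UMIs they were -0.080 for haemostasis, 0.092 for growth factors, -0.21 for tip cell genes and -0.75 for lipid handling. Without the highest doublet scores they were -0.035 for growth factors, -0.75 for lipid handling and 0.073 for immediate early genes. With stricter quality they were -0.22 for lipid handling and 0.51 for SRF genes, with 3 gate genes -0.50 for lipid handling, and without other-cell UMIs -0.45 for lipid handling and 0.20 for adhesion.

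These genes changed sign. With equal weights the ratio was 0.0022 for Adh7, -0.11 for Ccn2, -0.51 for Cxcl2, 0.064 for Cytl1, 0.099 for Eng, -0.29 for Mrc1 and 0.010 for Sele. After thinning it was 0.011 for Adh7, -0.54 for Ccl7, -0.13 for Cxcl2, 0.069 for Cytl1, -0.20 for Dll1 and -0.049 for Mrc1. With stricter quality it was 0.13 for Cd36, 0.16 for Nrp2, -0.026 for Sfrp1 and -0.037 for Vcam1. Without other-cell UMIs it was -0.0028 for Ccl7 and 0.61 for Sele, and without the highest doublet scores -0.31 for Cxcl2 and -0.26 for Mrc1.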

Other observations

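Some genes outside the groups above that stood at least as high in arterial cells as in cells with no pan-endothelial gene were also past 1.5-fold, and they were chosen after their values were seen. Nr6a1, an orphan nuclear receptor, was at 56.2 CPM in the Cept1 library and 25.5 CPM in the control library (log2 ratio 1.14, 0.79 to 1.50), and Plagl1, an imprinted zinc finger factor, at 37.6 CPM against 19.7 CPM (0.93, 0.54 to 1.35). Heph, a ferroxidase that acts in iron export, was at 43.0 CPM against 21.5 CPM (1.00, 0.62 to 1.39). Gpr21, an orphan receptor, had 85 UMIs against 17 (1.23, 0.47 to 2.07), and Gna14, a G protein subunit that couples receptors to phospholipase C, 295 against 77 (0.84, 0.48 to 1.23). Pde4d, a phosphodiesterase of cyclic AMP, was at 333 CPM against 182 CPM (0.87, 0.74 to 1.00).

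On the lower side, Serpina1e, a serine protease inhibitor of the α1-antitrypsin family, had 78 UMIs in each library, 11.3 CPM in the Cept1 library against 24.0 CPM in the control library (-1.09, -1.57 to -0.62). Syt7, a calcium sensor of exocytosis, was at 23.9 CPM against 50.5 CPM (-1.08, -1.40 to -0.76) and Mal, a membrane raft protein, at 12.3 CPM against 27.4 CPM (-1.16, -1.61 to -0.71). Cldn5, the tight junction claudin of endothelium, was at 290 CPM against 434 CPM (-0.58, -0.68 to -0.48), just short of 1.5-fold. A list of position genes held Hox genes, which mark the place of a cell along the body axis, and T-box and other factors such as Tbx1, Tbx18 and Gata6. Of its 17 measured members 1 was at least 1.5-fold higher, Hoxb4 at 0.64 (0.19 to 1.10), and none was lower, with a median of -0.01. Mal and Hoxb4 each fell short of 1.5-fold under 1 of the 7 alternatives.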
